A study of Mus musculus with 30 samples.

Results

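The genes examined here are the chemokines and chemokine receptors of the mouse, studied across 30 arrays of 1 colour, each hybridised with the amplified RNA of 1 muscle fibre. They were chosen by name: every probe that is not a control and whose gene name begins with Ccl, Cxcl, Ccr or Cxcr and a digit, or is Cx3cl1, Cx3cr1, Xcl1 or Xcr1. This gave 57 genes of 35442 on the array, with 70 of its 55681 probes. Male CD1 mice gave the fibres, all taken from a fast muscle of the hindlimb (extensor digitorum longus). Muscles were injected with adeno-associated virus (AAV) at 8 weeks of age, and the wild type mice were matched in age. AAVMCU carries MCU, the pore of the mitochondrial calcium uniporter, and AAVshMCU a hairpin that silences it. The titles of the transfected controls name AAVshLuc, whereas their other labels give an AAV that holds no insert, and which of these applies is not settled here. At 7 days after injection there were 4 wild type, 3 AAVMCU, 4 transfected control and 3 AAVshMCU fibres, and at 14 days 4 of each. Injected fibres were picked for the green fluorescent protein of the virus and kept for amplification only when quantitative PCR showed the intended change of MCU. Below, these groups are called wild type, MCU vector, transfected control and silenced.

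Chemokines are small secreted proteins that guide leukocytes along a gradient. They are grouped as CC, CXC, CX3C and XC by the spacing of their first cysteines, and they act through receptors that couple to inhibitory G proteins and are carried mainly by leukocytes. In muscle, chemokines are best known for drawing neutrophils and then monocytes to damaged fibres, and some of them, Cxcl9, Cxcl10 and Cxcl11 above all, are induced by interferon.

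Levels are given as log2 signal minus the log2 of the array's own 75th percentile, so that 0 is a signal equal to that percentile. A difference is the log2 difference between 2 group means with its standard error (SE). The tests are limma's moderated tests with adjustment over the 23341 genes that passed a detection filter, and a gene is said to have risen or fallen only at an adjusted p below 0.05. Levels of different probes are not set against each other, since probes bind with different strength. That percentile lay between 83.2 and 138 on the 30 arrays, with 49.4% to 59.5% of an array's probes well above background. Mcu, which checks the labels, had mean levels of 2.67 and 2.46 in wild type fibres at 7 and 14 days, 2.57 and 2.55 in transfected controls, 3.27 and 6.36 with the MCU vector, and 0.49 and -0.52 in silenced fibres. Muscle fibre markers were well above background throughout, all 10 of 10 passing the filter.

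Most of the family was near or under the background of the arrays. Of the 57 genes, 8 were well above background in all 30 fibres, 10 in 15 to 29 fibres, 15 in 1 to 14 fibres and 24 in no fibre. A fibre had between 14 and 23 of the genes above background, with a median of 18, and the medians of the 8 groups lay between 17 and 19.5. The 8 genes seen in every fibre were the CC ligands Ccl2, Ccl5, Ccl19, Ccl25 and Ccl27a, the CXC ligands Cxcl9 and Cxcl11, and 1 receptor, Cxcr2. Cxcl9 is counted by 1 probe, and its other probe was above background in 0 fibres. The probes of Cxcl11 resemble sequence at other genes, and whether they measure Cxcl11 was not tested. In all, 23 genes passed the filter, which asked for a probe well above background in 3 fibres of at least 1 group; 8 of the 22 CC ligands, 7 of the 13 CXC ligands, 1 of the 2 CX3C or XC ligands, 4 of the 11 CC receptors and 3 of the 7 CXC receptors were among them, and neither Cx3cr1 nor Xcr1. A gene could pass through the group in which it was high, as Cxcl10 did through the transfected controls alone and Ccr10 through wild type fibres at 7 days alone.

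**Figure D1:**
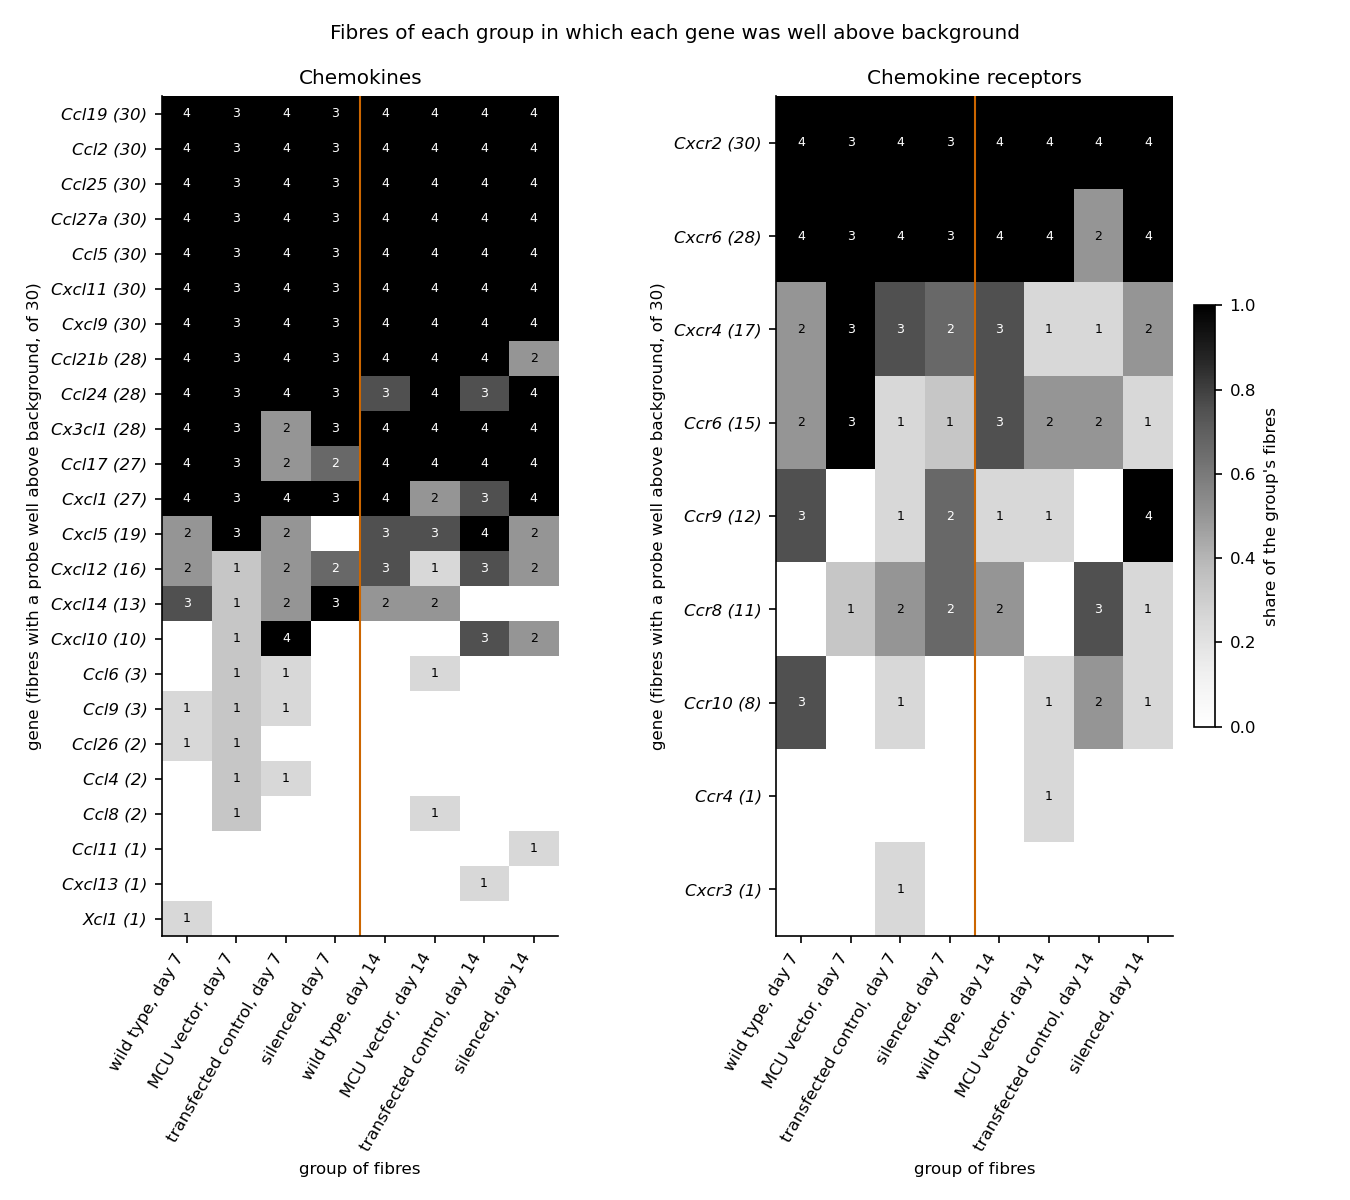
Number of fibres in each group with a probe well above background, for the 24 chemokines (left) and 9 receptors (right) seen in at least 1 fibre, with the number of all 30 fibres in brackets and shading for the share of the group. Cxcl10 was detected in 4 of 4 transfected controls at 7 days and in no wild type fibre.

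Several receptors of the detected ligands were seen in no fibre or in few. Ccr7, the receptor of Ccl19 and Ccl21, Ccr2, the receptor of Ccl2, Ccr3, the receptor of Ccl24, and Cx3cr1, the receptor of Cx3cl1, were in 0 of 30 fibres. Ccr4, which binds Ccl17, and Cxcr3, which binds Cxcl9, Cxcl10 and Cxcl11, were each in 1 fibre. Ccr9 was in 12 fibres and its ligand Ccl25 in 30, and Ccr10 was in 8 with its ligand Ccl27a in 30. The reverse held for Cxcr6: the receptor was seen in 28 fibres by either of its probes, and its ligand Cxcl16 in none. Cxcr2, which binds Cxcl1 and Cxcl5, was in 30 fibres with Cxcl1 in 27 and Cxcl5 in 19, and Cxcr4 was in 17 fibres with its ligand Cxcl12 in 16. Of the neutrophil and monocyte attractants, Ccl3, Ccl7, Ccl12, Cxcl2 and Cxcl3 were in 0 fibres, and Ccl4 and Ccl8 in 2 each.

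The transfected controls were first set against wild type fibres, which shows what differs with the virus and its injection. Of the 23 genes, Cxcl10 rose and Ccl2, Ccl17, Cxcl9, Cxcl14, Cxcr2 and Cxcr6 fell over both days, 7 in all, while 27.8% of all genes tested passed in this comparison (10.3% higher and 17.5% lower). The share among the chemokine genes is therefore near the background. The median difference of the 23 genes was -0.21, against -0.04 over all genes tested. At 7 days 4 of the genes passed (Ccl2, Cxcl9, Cxcl10 and Cxcr6; 17.4% of all genes, 6.43% higher and 11% lower), and at 14 days Cxcr6 alone (16% of all genes, 5.77% higher and 10.2% lower). No slide held both transfected control and wild type fibres, so for this comparison slide and treatment cannot be told apart.

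Cxcl10, an interferon-induced attractant of T cells, had the largest difference of the family. Its probe (mm9, chr5:92775781-92775840, minus strand) was not well above background in any of the 8 wild type fibres, whose values were -5.06, -4.96, -5.16 and -5.12 at 7 days and -5.23, -4.79, -4.75 and -3.25 at 14 days. The transfected controls had 2.60, 0.69, -0.30 and 2.49 at 7 days, all above background, and -5.16, -0.16, -0.50 and -0.71 at 14 days, where the first was not. Every control fibre at 7 days was thus above every wild type fibre, while at 14 days 1 of 4 controls lay among them. Since the wild type groups give only a bound, the controls were at least 25.0-fold higher at 7 days (adjusted p = 0.00018) and at least 9.02-fold higher over both days (adjusted p = 5.5e-05). At 14 days the bound was 3.26-fold and the adjusted p 0.062. Silenced fibres were at -3.03, -4.75 and -3.86 at 7 days, none above background, and at -1.20, -4.66, 1.29 and -2.58 at 14 days, with -1.20 and 1.29 above it. With the MCU vector, 1 of 7 fibres was above background, at -1.59 at 7 days. Cxcl10 was at least 17.0-fold lower in silenced fibres than in transfected controls at 7 days (adjusted p = 0.0035). Over both days it fell by 2.70 (SE 0.77, adjusted p = 0.021, with 9 of the 15 fibres above background; -2.20 with dim spots at the floor), a call that was lost without silenced fibre 2 of day 7 (adjusted p = 0.053) and with the slide as a block (log2 difference -2.51). At 14 days the 2 groups overlapped, with a difference of -0.15 (SE 1.04, adjusted p = 0.96). The change of the silencing difference from day 7 to day 14 had an adjusted p of 0.059. The controls serve in both comparisons, so the rise against wild type and the fall on silencing are not independent of each other.

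Cxcl10 overlaps Art3 on the other strand, and the labelling does not keep strand, so that reads of the 2 genes cannot be separated by the array chemistry. Art3, a gene of the ADP-ribosyltransferase family, had group means from 4.09 to 4.55 on 1 probe and from 2.30 to 2.67 on the other; on the first, controls were at 4.24 and 4.25 and wild type fibres at 4.09 and 4.55 at 7 and 14 days. Genes of the pathways upstream were also higher in the transfected controls. Of 19 tested genes of interferon, interleukin 1 and NF-kB signalling, 9 rose and 1 fell over both days, with a median difference of 0.42. Among all genes tested, 10.3% rose and 17.5% fell in this comparison. The genes that passed include Myd88 and Ifnar2, which were above background in only 4 and 7 fibres of the whole series. A gene so rarely seen can pass the filter through the group in which it is high. The count therefore rests in part on dim genes, and slide and treatment cannot be told apart in it. Irf1, an interferon-induced transcription factor, had means of 1.65 and 1.58 in wild type fibres and of 3.36 and 5.37 in transfected controls at 7 and 14 days, and rose by 2.75 (SE 0.29, adjusted p = 4.4e-07). Ifng and Ifnb1, the interferons on the list, were in 1 and 0 fibres. Irf1 was at 3.58 and 3.51 in silenced fibres. Against the controls it fell by 1.85 at 14 days (SE 0.41, adjusted p = 0.012), and its differences at 7 days (0.22, adjusted p = 0.78) and over both days (-0.82, adjusted p = 0.071) did not pass. Markers of macrophages and monocytes moved in part as well: of 9 tested, Cd68 and C1qb rose in controls against wild type (2.23 and 0.85) while Itgam and Fcgr1 fell, and Cd68 and C1qb fell on silencing (differences of -2.11 and -0.53). In these comparisons 10.3% of all genes tested rose and 17.5% fell in controls, and 6.11% fell on silencing. Mrc1 and C1qc were in 0 fibres, and Cd163 in 1. The part of these genes in the change of Cxcl10 was not tested.

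The promoters of Cxcl10 and of its neighbour Cxcl9 are shown because the values of these 2 ligands of Cxcr3 moved in opposite directions in the same fibres. For Cxcl9 the values rest on 1 probe, since its other probe was above background on 0 arrays. Whether the promoters have a part in these opposite moves was not tested. Both are from RefSeq on build GRCm38.p6, each 300 bases long and reaching from upstream of the start to just past it, and capitals mark a match to the interferon response element, searched on both strands as GAAA, any 2 bases and GAAA again. The Cxcl10 window (chr5:92348840-92349139, minus strand) has 1 match, which begins at -213 from the start, and the Cxcl9 window (chr5:92328030-92328329, minus strand) has none.
Cxcl10: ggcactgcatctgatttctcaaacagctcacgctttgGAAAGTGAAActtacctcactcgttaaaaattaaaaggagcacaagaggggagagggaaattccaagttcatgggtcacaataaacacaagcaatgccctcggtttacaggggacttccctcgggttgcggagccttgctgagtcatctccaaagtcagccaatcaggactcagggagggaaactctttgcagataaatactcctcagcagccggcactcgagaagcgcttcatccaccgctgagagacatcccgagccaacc
Cxcl9: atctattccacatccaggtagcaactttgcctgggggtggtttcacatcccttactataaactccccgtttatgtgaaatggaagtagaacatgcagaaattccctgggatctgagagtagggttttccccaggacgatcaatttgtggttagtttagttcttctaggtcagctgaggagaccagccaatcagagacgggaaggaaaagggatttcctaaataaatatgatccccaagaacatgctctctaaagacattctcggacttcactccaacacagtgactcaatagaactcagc
The same letters stand in 3.44% of the 32851 promoters of this length, and among the 42 chemokine genes with a promoter in the table in those of Ccl19, Cxcl10 and Cxcl14. An NF-kB site, searched on both strands as GGGA, any base and TTTCC, stands in 0.411% of promoters and in Ccr3, Cxcl1, Cxcl2 and Cxcl3 among these genes, and a STAT site, searched as TTCNNNGAA, stands in 8.3% and in Ccl17, Ccr1l1, Ccr6 and Cxcl14. None of the 3 patterns is in the promoter of Cxcr6. A match describes the letters and not a site in use. Each search used only the pattern given, so a promoter without a match can still hold another form of the site. This holds for Cxcl10 and the NF-kB site, and for Cxcl9 and the interferon response element.

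Cxcl9, like Cxcl10 a ligand of Cxcr3, went the other way. Its wild type levels were 0.42, 0.15, 0.51 and 0.00 at 7 days and -0.26, 0.13, 0.75 and 0.62 at 14 days. The transfected controls had -0.71, -0.32, -0.84 and -0.39 at 7 days and -0.32, 0.18, -0.45 and -0.44 at 14 days. At 7 days the groups did not overlap, and over both days Cxcl9 fell by 0.70 (SE 0.20, adjusted p = 0.01). Silenced fibres had 0.74, 0.81 and 0.73 at 7 days, all above every control, and -0.69, -0.58, 1.10 and -0.29 at 14 days, a spread that takes in all 4 controls. Against the controls Cxcl9 rose by 1.32 at 7 days (SE 0.30, adjusted p = 0.0052) and by 0.73 over both days (SE 0.21, adjusted p = 0.02). At 14 days the difference was 0.14 (adjusted p = 0.83), and its change from the 7-day value missed the threshold (-1.18, adjusted p = 0.11); without silenced fibre 3 of day 14, which held the highest value, that difference passed (-1.59, adjusted p = 0.0035). These values rest on 1 of 2 probes (mm9, chr5:92752796-92752855), well above background on all 30 arrays; the other probe of Cxcl9 was above it on none.

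Cxcl11, which also binds Cxcr3, was above background on both of its probes in every fibre, and its levels varied little. Group means of the brighter probe (mm9, chr5:92788567-92788626) ran from 7.28 to 7.60. Cxcl11 passed in no comparison: its smallest p was in silenced fibres at 7 days, with 7.62, 7.55 and 7.63 against 7.32, 7.36, 7.32 and 7.34 in the controls, a difference of 0.26 (SE 0.10, adjusted p = 0.071). The stretch of bases 10 to 39 of that probe is shown because it bears on what the probe measures, with capitals for 20 bases that also stand in probes of other genes.
Cxcl11 probe: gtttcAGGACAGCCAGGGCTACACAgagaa
A 20-base word of this probe was shared with 7 probes of other genes, among them those of Elk1, Med16, Timmdc1, Ndor1 and F10, and all 7 were well above background on all 30 arrays, with median levels from 6.83 to 8.95. F10, a clotting factor of the liver, had a median of 8.69. Of the 70 chemokine probes, 64 shared no such word with another gene. Matches of at least 40 bases at 80% identity or more were found in 66 of the 32851 promoters for this probe and in 19 for the other probe of Cxcl11, while 66 of the 70 probes had none. Cxcl11 and Art3 overlap as well. The levels of Cxcl11 are therefore those of its probes, and whether they are those of the gene was not tested.

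Cxcr6, a receptor of memory T cells and natural killer T cells that binds the membrane-anchored ligand Cxcl16, had the largest difference among the receptors, and was the 1 gene of the family that passed in all 3 silencing comparisons. Wild type fibres had 0.41, -0.20, -0.08 and 0.30 at 7 days and -0.36, -0.86, -1.03 and -2.51 at 14 days. Fibres with the MCU vector had -0.65, -0.01 and 0.23 at 7 days and -0.39, -1.18, -2.20 and -1.28 at 14 days, within or near the range of wild type. The transfected controls were the low group, with -2.36, -2.74, -1.56 and -2.89 at 7 days and -5.15, -2.79, -1.89 and -4.79 at 14 days. On this probe 3 of 4 controls at 7 days and 1 of 4 at 14 days were above background. Silenced fibres had -0.43, -0.51 and -0.67 at 7 days and 0.96, -0.65, 1.01 and -0.50 at 14 days, and all 7 were above all 8 controls. Against the controls Cxcr6 rose by 1.85 at 7 days (SE 0.61, adjusted p = 0.046), by 3.86 at 14 days (SE 0.57, adjusted p = 0.00016) and by 2.86 over both days (SE 0.42, adjusted p = 0.00011). With spots under the background set to the floor, the last 2 differences were 3.07 and 2.46. Against wild type, the controls were lower by 2.49 at 7 days (adjusted p = 0.0036) and by 2.47 at 14 days (adjusted p = 0.0047), with a difference of -2.48 over both days (SE 0.40, adjusted p = 6.9e-05). The same 8 control fibres are in both comparisons. Over both days Cxcr6 passed in all 28 alternative analyses of each comparison, with differences from 1.08 to 3.15 on silencing. The call at 7 days alone was lost in 12 of 19, among them without any 1 fibre of that comparison except control fibre 3 (6 of 7, adjusted p from 0.080 to 0.10), and the call at 14 days in 1 of 20.

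The 2 probes of Cxcr6 overlap (mm9, chr9:123720709-123720768 and chr9:123720719-123720778) and so are not independent; the second gave the values above, and the first a difference of 2.51 on silencing (SE 0.44, adjusted p = 0.00069). Cxcr6 lies within Fyco1, an adaptor of autophagosome transport, on the other strand. Fyco1 had group means from 1.51 to 2.28 and was 1.90 and 1.83 in controls against 1.74 and 2.07 in silenced fibres at 7 and 14 days. T and natural killer cell markers moved with Cxcr6 in part. Of 9 such markers tested, 4 fell in transfected controls against wild type (Cd4, Ncr1, Gzma and Prf1, with Gzma above background in 4 of the 16 fibres) and 3 rose on silencing (Cd4, Gzma and Prf1). Among all genes tested, 17.5% fell in controls and 8% rose on silencing. Cd4 differed by -0.62 and 0.40 in these comparisons. The summed signal of all 14 markers on the list, in units of the 75th percentile, was 11.0 to 12.4 in wild type, 8.25 to 9.01 in control and 9.59 to 12.2 in silenced fibres at 7 days, and 10.0 to 11.4, 8.61 to 10.0 and 9.42 to 11.3 at 14 days. Cd3d, Cd2 and Klrd1 were in 0 fibres, and Cd3e and Ptprc, which marks all leukocytes, in 30. Over both days Ptprc differed by 0.13 in controls against wild type and by -0.02 on silencing, and passed in neither. The part of these markers in the result was not tested. In a picked fibre, fewer cells of a type and less RNA per cell cannot be told apart.

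**Figure D2:**
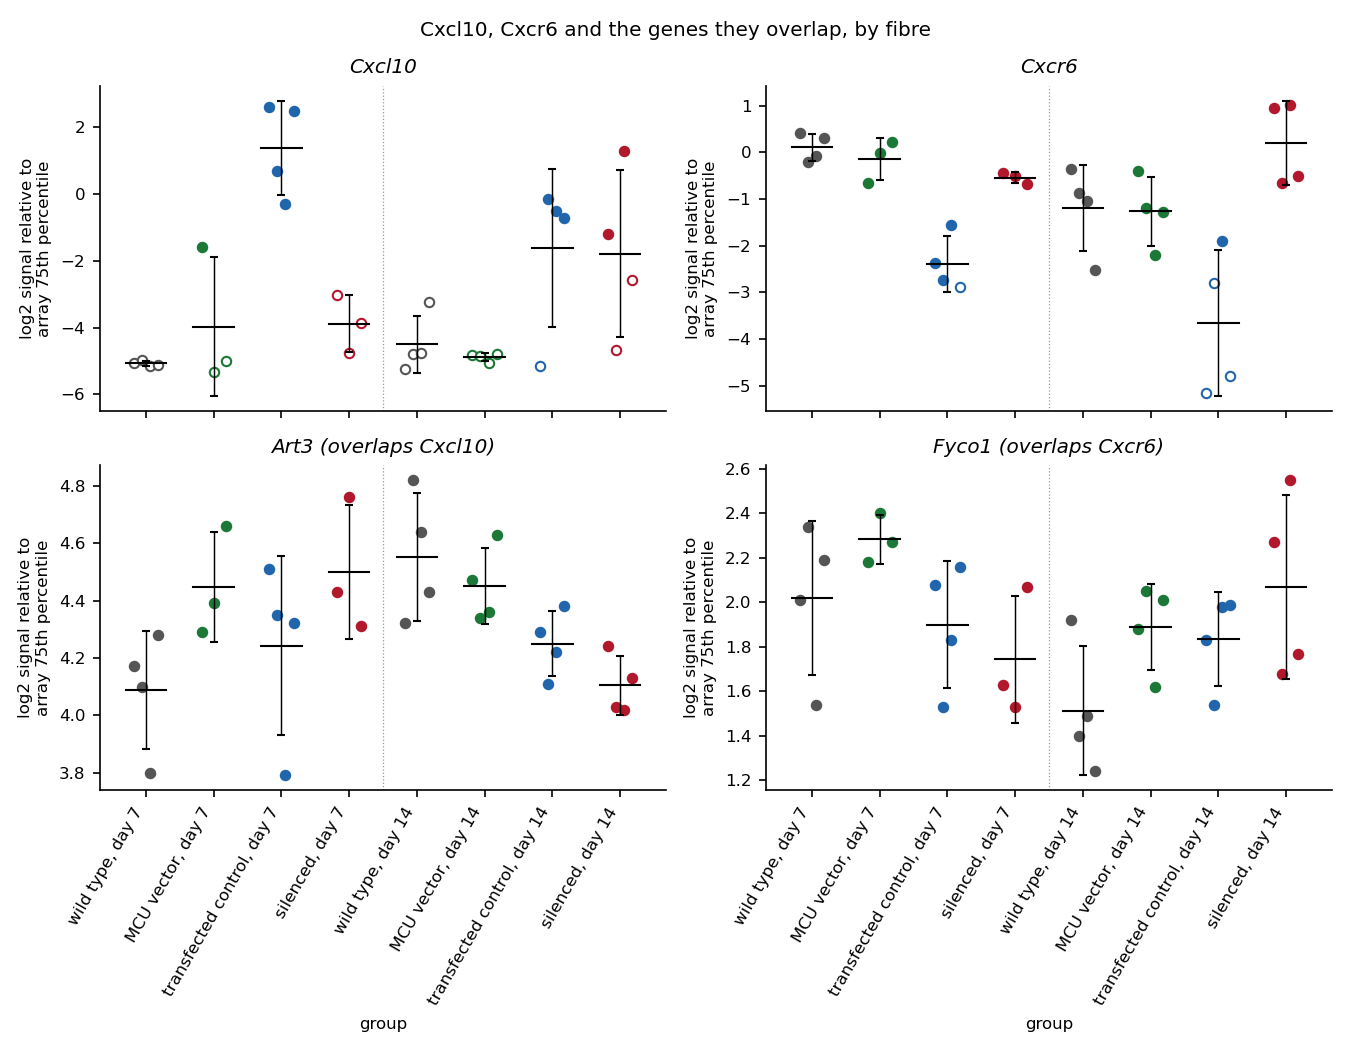
Levels of Cxcl10 and Cxcr6 (top) and of the genes they overlap, Art3 and Fyco1 (bottom), as log2 signal scaled to the 75th percentile of each array; the y axes differ. Points are fibres, open points are spots not well above background, and bars are the mean and SD. Transfected controls at 7 days are the high group for Cxcl10 (-0.30 to 2.60) and the low one for Cxcr6 (-2.89 to -1.56).

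Silencing was tested against the transfected controls, with which the silenced fibres shared a slide on each day. Silenced fibres were in array columns 1 and 2 of these slides, and controls in columns 3 and 4. Column and treatment therefore cannot be told apart. Over both days 6 of the 23 genes rose (Ccl17, Ccr9, Cx3cl1, Cxcl9, Cxcr2 and Cxcr6) and 1 fell (Cxcl10). The 7 genes are read against 14.1% of all genes tested (8% higher and 6.11% lower); the median difference of the 23 was 0.27, against 0.04 over all genes. At 7 days 4 passed, with Ccl19, Cxcl9 and Cxcr6 up and Cxcl10 down, where 13.4% of all genes did (8.28% higher and 5.17% lower). At 14 days Cxcr6 alone passed, where 3.46% of all genes did (1.54% higher and 1.92% lower). Ccl17, Cxcl9, Cxcl10, Cxcr2 and Cxcr6 are also among the genes that differed between the same controls and wild type, with the opposite sign. The shares higher and lower depend on the scaling: with the array median in place of the 75th percentile, 25.1% of all called genes were higher on silencing against 56.7%, the median of all genes moved by -0.12, and 3 of the 7 genes passed (Cxcl9, Cxcl10 and Cxcr6). In the comparison of controls with wild type that share was 66.9% against 36.9%, with a move of 0.16.

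Ccl17, a dim gene that attracts T cells through Ccr4, had -2.17, -2.07, -2.21 and -1.80 in wild type fibres at 7 days and -2.13, -2.02, -1.68 and -2.01 at 14 days. The controls had -2.29, -3.07, -2.80 and -2.26 at 7 days and -2.39, -2.18, -2.43 and -2.30 at 14 days, each below all wild type fibres of its day. Silenced fibres were at -1.84, -2.57 and -1.74 and at -1.39, -1.93, -1.82 and -2.00, above all controls at 14 days. Ccl17 fell by 0.45 in controls against wild type (SE 0.15, adjusted p = 0.021) and rose by 0.55 on silencing (SE 0.15, adjusted p = 0.018). The first call was lost without wild type fibre 3 of day 14 or control fibre 2 of day 7, and the second without silenced fibre 3 of day 7 (0.47, adjusted p = 0.059).

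Cx3cl1, a membrane-bound ligand that is shed as a soluble attractant of monocytes, was spread widely in the controls at 7 days, at -3.20, -3.28, -0.71 and -1.82, with the first pair not above background, and was at -2.38, -2.07, -1.82 and -2.00 at 14 days. Silenced fibres had -1.55, -1.64 and -1.50 at 7 days and -1.10, -1.38, -0.38 and -1.73 at 14 days, where all were above all controls. Cx3cl1 rose by 0.80 on silencing over both days (SE 0.27, adjusted p = 0.049), and the call was lost on leaving out any of 12 of the 15 fibres (adjusted p up to 0.11). Adam10, which sheds Cx3cl1 and Cxcl16, did not pass (-0.08, adjusted p = 0.81), and neither did Adam17 (0.52, adjusted p = 0.21).

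Cxcr2, the receptor of the neutrophil attractants Cxcl1 and Cxcl5, had means of -1.63 and -1.68 in wild type, -2.24 and -1.94 in control and -1.63 and -1.49 in silenced fibres at 7 and 14 days. It fell by 0.44 in controls against wild type (SE 0.16, adjusted p = 0.047) and rose by 0.53 on silencing (SE 0.17, adjusted p = 0.038), and in each comparison the call was lost on leaving out any of 8 fibres. Of 2 tested neutrophil markers Camp fell in the controls and rose on silencing at 7 days, and its silencing difference was lower at 14 than at 7 days. The other, Csf3r, passed in no comparison. The summed signal of the neutrophil markers was 175 to 190 in wild type and 181 to 192 in controls at 7 days. At 14 days it was 175.3 to 195.7 and 196 to 212.8. The part of these markers in the result was not tested. The ligand Cxcl1 had a difference of 0.15 on silencing (adjusted p = 0.83) and Cxcl5 one of -0.56 (adjusted p = 0.24).

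Ccr9, the receptor of Ccl25, was above background in 12 fibres, among them 4 of 4 silenced fibres at 14 days (-1.74, -1.71, -2.07 and -2.41) and 0 of 4 controls of that day (-3.52, -3.08, -3.46 and -3.83). Over both days it rose by 1.04 on silencing (SE 0.32, adjusted p = 0.03, with 7 of the 15 fibres above background; 0.84 with dim spots at the floor), a call lost on leaving out any of 6 of the 15 fibres. At 14 days alone it was at least 1.98-fold higher (adjusted p = 0.055). Ccl25, a ligand made in thymus and gut, had levels from 1.87 to 2.91 in the 30 fibres and passed in neither comparison, with 0.30 in controls against wild type (adjusted p = 0.069) and -0.29 on silencing (adjusted p = 0.13). Another of its 3 probes, read by itself, differed by -0.74 on silencing (adjusted p = 0.04).

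Ccl2, the main attractant of monocytes, fell in the controls against wild type. Wild type fibres had 0.90, 0.48, 0.61 and 0.59 at 7 days and 0.59, 0.41, 0.31 and -0.08 at 14 days, and controls -0.28, -0.21, 0.19 and -0.38 at 7 days and -0.26, 0.42, 0.13 and 0.19 at 14 days. The groups did not overlap at 7 days, where Ccl2 fell by 0.81 (SE 0.20, adjusted p = 0.0054), and the difference at 14 days was -0.19 (adjusted p = 0.57). On silencing it differed by 0.49 at 7 days (adjusted p = 0.12) and by -0.03 at 14 days. The summed signal of the 12 macrophage and monocyte markers, in units of the 75th percentile, was 286 to 343 in wild type and 238 to 276 in control fibres at 7 days, and 308 to 319 and 275 to 308 at 14 days. Such a sum, here and for the other lists, adds all probes whether or not above background, so that the brightest weigh most. Among these markers Cd68 and C1qb rose and Itgam and Fcgr1 fell in controls over both days. The part of the markers in the level of Ccl2 was not tested.

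Cxcl14, an attractant made by epithelia and fibroblasts, was above background in 3 of 4 wild type fibres at 7 days, 2 of 4 at 14 days, 2 of 4 controls at 7 days and 0 of 4 at 14 days. Over both days the fitted difference between controls and wild type was -1.44 (SE 0.45, adjusted p = 0.018, with 7 of the 16 fibres above background). With dim spots set to the floor the difference was -0.62 and the call was lost (adjusted p = 0.24). The highest wild type fibre at 7 days was at -0.14, with the others between -2.91 and -2.75. The summed signal of 5 fibroblast markers ran from 1.99 to 15.1 in wild type and from 1.49 to 5.15 in control fibres at 7 days, and from 1.75 to 11.3 and 1.61 to 2.29 at 14 days; Pdgfra was in 0 fibres. The part of these markers in its value was not tested.

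**Figure D3:**
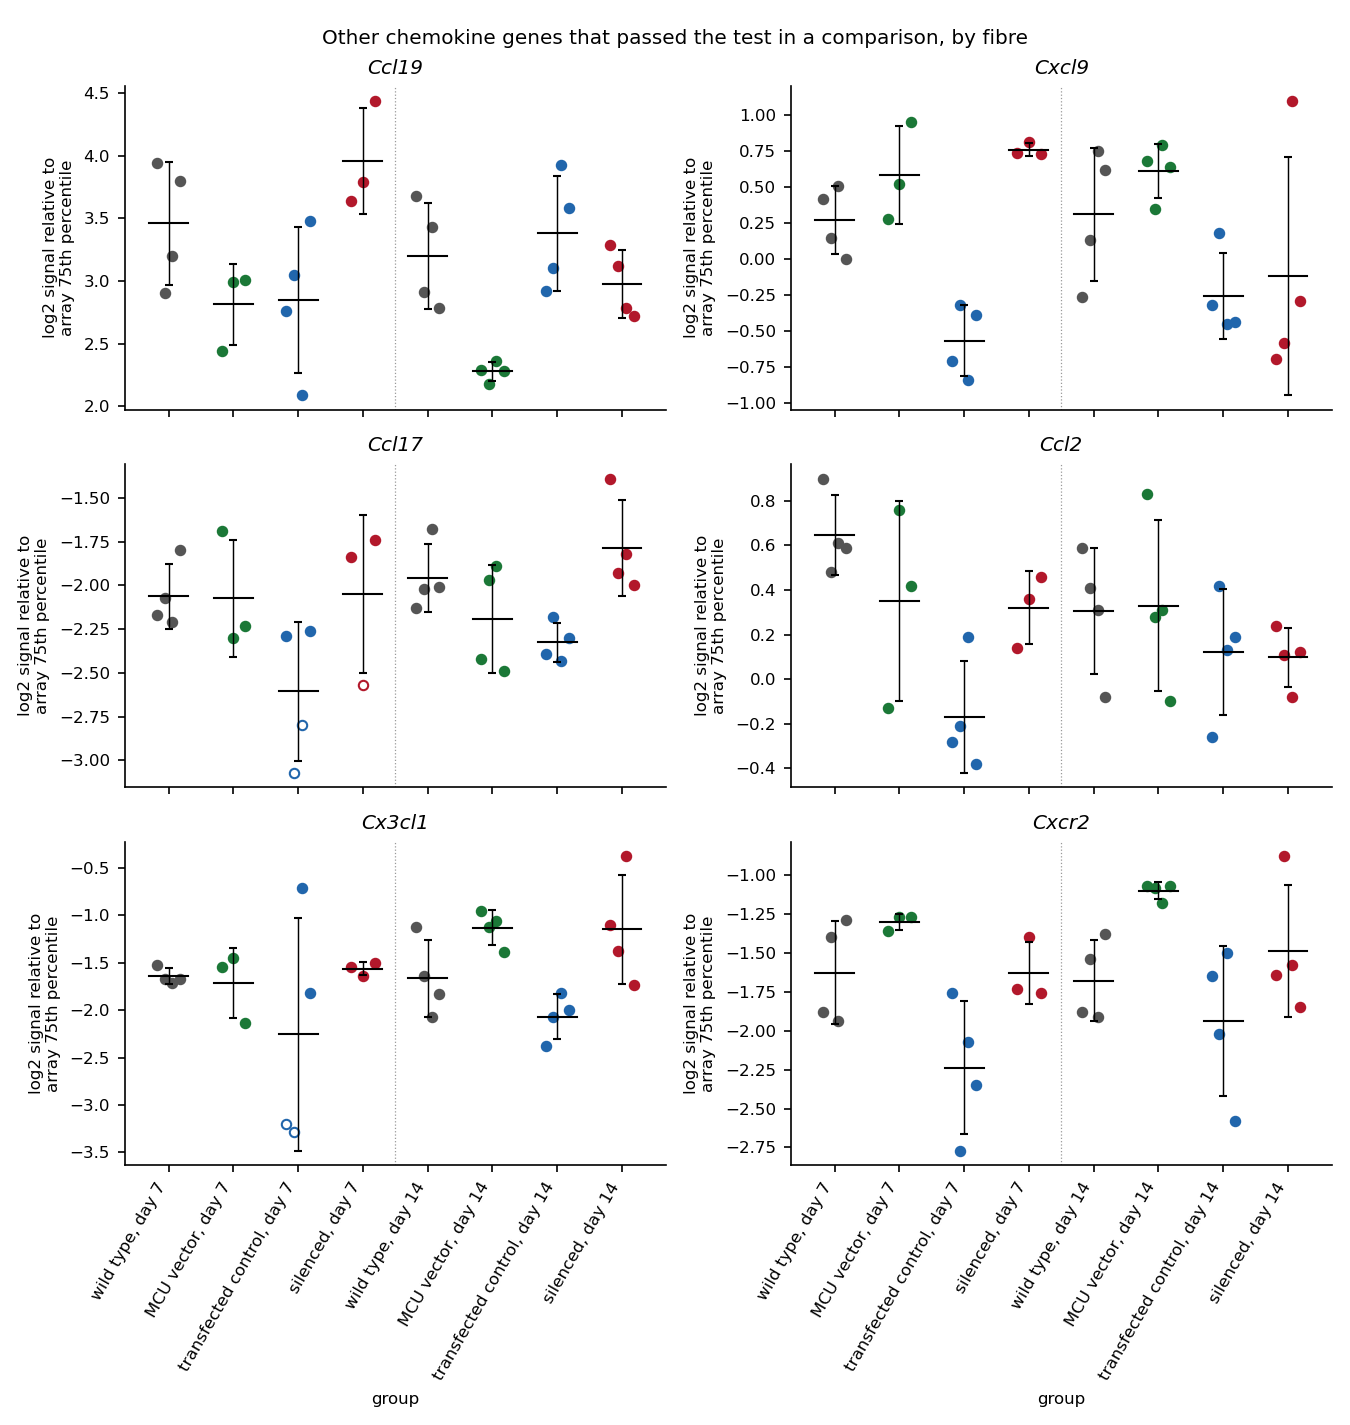
Levels of Ccl19, Cxcl9, Ccl17, Ccl2, Cx3cl1 and Cxcr2 in each fibre, drawn by group as log2 signal scaled to the 75th percentile of each array; open points are spots not well above background, and bars are the mean and SD. Silenced fibres at 7 days were above all controls of that day for Ccl19 (3.64 to 4.44 against 2.09 to 3.48) and Cxcl9.

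Ccl19, which guides T cells and dendritic cells to lymphoid tissue, was the 1 gene of the family whose response to silencing changed between days (0 of 23 for the MCU vector with limma; 4.13% of all genes tested passed for silencing, 1.38% upward and 2.75% downward). At 7 days silenced fibres had 3.64, 3.79 and 4.44, all above the controls at 2.76, 3.05, 2.09 and 3.48. Ccl19 rose there by 1.11 (SE 0.30, adjusted p = 0.017). At 14 days silenced fibres had 3.29, 3.12, 2.78 and 2.72 and overlapped the controls at 2.92, 3.10, 3.93 and 3.58, with a difference of -0.41 (SE 0.28, adjusted p = 0.46). The change of the difference from day 7 to day 14 was -1.52 (SE 0.41, adjusted p = 0.037), and leaving out any of 8 of the 15 fibres lost it (adjusted p up to 0.11). The call at 7 days was lost without control fibre 3 (0.86, adjusted p = 0.064) or silenced fibre 3 (0.87, adjusted p = 0.11). Of the other probes of Ccl19, 1 gave -1.94 for the change between days (adjusted p = 0.038) and the other -0.35 (adjusted p = 0.59). Ccl19, Ccl21b and Ccl27a belong to a stretch of chromosome 4 with near-identical gene copies, so that their signal may be shared among copies. Ccl21b, which uses the same receptor as Ccl19, had a change of -1.06 between days (adjusted p = 0.077), and Ccl27a one of -1.08 (adjusted p = 0.33).

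**Figure D4:**
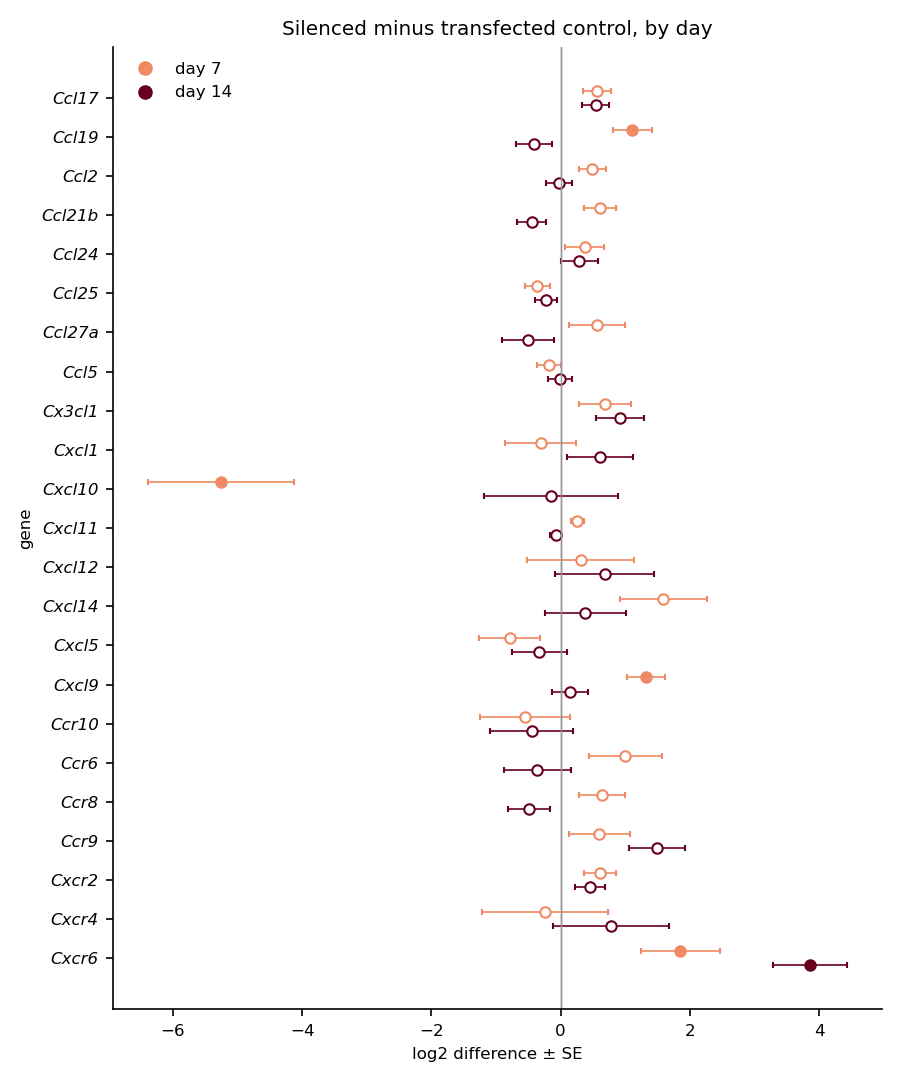
Log2 difference ± SE between silenced and transfected control fibres at 7 days and at 14 days for the 23 tested genes; filled points passed at an adjusted p below 0.05. Cxcr6 passed on both days (1.85 and 3.86), and Ccl19, Cxcl9 and Cxcl10 at 7 days.

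Against wild type, no gene of the family passed with the MCU vector by limma, over both days (1.13% of all genes tested passed, 0.835% higher and 0.291% lower), at 7 days (0.574%, with 0.54% higher and 0.0343% lower) or at 14 days (0.428%, with 0.33% higher and 0.0985% lower). The counts at an unadjusted p under 0.05 were 3, 2 and 5 of 23. The median difference over both days was -0.08, against -0.02 over all genes. The effect did not change between days for any of the 23 genes at an adjusted p under 0.05 (0.201% of all genes did, 0.0171% upward and 0.184% downward), and for 2 at an unadjusted p. Since these fibres shared a slide with wild type fibres of the same day, the comparison lies within slides. MCU vector fibres were in array columns 1 and 2 of the slides, and wild type fibres in columns 3 and 4. Column and treatment therefore cannot be told apart here either. Wild type fibres had no virus, so in this comparison MCU cannot be told apart from the virus and its injection.

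Ccl19 came nearest to passing. Fibres with the MCU vector had 2.44, 2.99 and 3.01 at 7 days and 2.29, 2.18, 2.36 and 2.28 at 14 days. Wild type fibres had 3.94, 2.90, 3.20 and 3.80 at 7 days and 3.68, 2.91, 3.43 and 2.78 at 14 days. At 14 days all 4 MCU vector fibres were below all 4 wild type fibres, and over both days the difference was -0.78 (SE 0.21, adjusted p = 0.063). It passed without wild type fibre 2 of day 7 (-0.88, adjusted p = 0.031), and 1 of the other probes read by itself gave -1.07 (adjusted p = 0.045). Cxcr2 was at -1.07, -1.08, -1.18 and -1.07 with the MCU vector at 14 days, above all wild type fibres of that day (-1.88, -1.54, -1.91 and -1.38), with a difference over both days of 0.45 (SE 0.17, adjusted p = 0.22). Ccl5, an attractant of T cells, had 1.11, 1.23, 0.86 and 0.67 with the vector at 14 days and 1.09, 0.46, 0.21 and 0.43 in wild type, with a difference over both days of 0.32 (SE 0.13, adjusted p = 0.27). With the transfected controls in place of wild type fibres, which puts the 2 groups on different slides, 7 of the 23 genes passed, where 26% of all genes did (15.3% higher and 10.7% lower), so that the share is near the background. Ccl19 and Cxcl10 were lower and Ccl5, Cx3cl1, Cxcl9, Cxcr2 and Cxcr6 higher with the MCU vector.

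**Figure D5:**
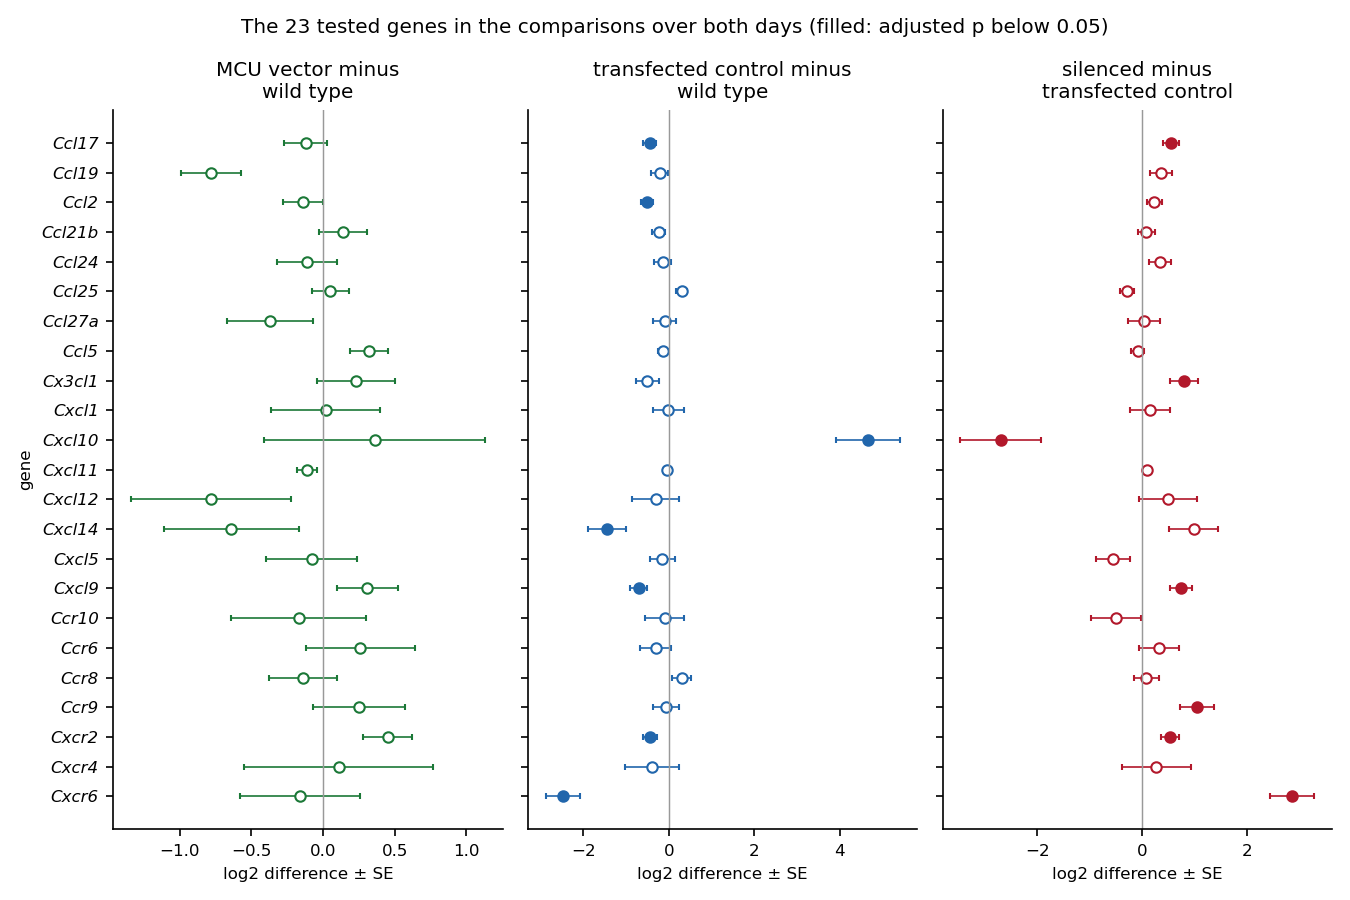
Log2 difference ± SE for each of the 23 tested genes over both days in the 3 main comparisons; the x axes differ, and filled points passed at an adjusted p below 0.05. No gene passed with the MCU vector, and Cxcl10 and Cxcr6 stand furthest from 0 in the other 2 comparisons, which share the transfected controls.

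Of the 19 tested genes of cytokine signalling, 4 rose with the MCU vector at 7 days (Stat2, Irf1, Irf7 and Irf9, transcription factors of the interferon response) and 0 passed at 14 days by limma (2 at an unadjusted p under 0.05). Among all genes tested, 0.54% rose with the vector at 7 days and 0.428% passed at 14 days. Over both days Stat2, Irf7 and Irf9 rose, with a median of 0.12 for the list, where 0.835% of all genes rose. Stat2, Irf1 and Irf9 also rose in the transfected controls against wild type at 14 days, where 5.77% of all genes rose. With wild type as the reference, MCU and the virus cannot be told apart for these genes. Irf7 was well above background in 3 of 3 MCU vector fibres and 0 of 4 wild type fibres at 7 days, where it was at least 10.4-fold higher (adjusted p = 1.6e-07), and in 4 of 4 and 2 of 4 at 14 days, with a difference of 0.92 (adjusted p = 0.32). The change of its difference between days was -3.18 (adjusted p = 0.0035). Over both days Irf9 rose by 2.13 (SE 0.26, adjusted p = 7.9e-06). Cxcl10 was above background in 1 of the 7 MCU vector fibres, and its difference was 0.36 (SE 0.77, adjusted p = 0.88). Tnf, Il6 and Ifnb1 were in 0 fibres. On silencing, Il1b, an inflammatory cytokine, rose over both days (0.80, SE 0.20, adjusted p = 0.0097) and Stat2 and Rela fell, with a median of -0.08. These 3 of 19 are near the 14.1% of all genes that passed in this comparison. Stat2 differed by -1.65 (adjusted p = 0.0021; -0.81 with dim spots at the floor) and Rela by -0.48 (adjusted p = 0.032). The change of the silencing difference between days passed for Il1b (-2.73, adjusted p = 0.00021), Relb and Nfkbia. Il1b rose on silencing at 7 days and did not pass at 14 days, so its mean over both days does not describe each day.

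Few genes passed on the lists of other receptors and of signalling genes. The first list holds atypical receptors, which bind chemokines without moving cells, and a few receptors that signal; of its 5 tested genes Gpr35, a G protein-coupled receptor that signals, rose on silencing (0.35, SE 0.08, adjusted p = 0.0045), Ackr2, which clears CC chemokines, was at least 1.70-fold lower in controls than in wild type at 14 days (adjusted p = 0.011), and none passed with the MCU vector over both days by limma (0 at an unadjusted p under 0.05). Ccrl2 had a change of the silencing difference of -1.55 between days (adjusted p = 0.014). Of 15 tested genes that carry the signal of the receptors, Rac2, a GTPase of leukocytes, rose on silencing (0.33, adjusted p = 0.043) and was among 3 that fell in controls against wild type, with Arrb2 and Dock2. These counts, 1 and 3 of 15, are near the shares of all genes that were higher on silencing (8%) and lower in controls (17.5%). Of the chemokine-like genes outside the naming rule, Pf4 and Ppbp, the platelet chemokines, were in 0 fibres, and Mif rose by 0.32 in controls against wild type (adjusted p = 0.041). None of these genes is a member of the family by name, and their relation to its levels was not tested.

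The other members that passed the filter met the threshold in no comparison. Cxcr4, which holds stem cells and leukocytes in place through Cxcl12, ranged from -5.37 to -0.61, and Cxcl12 from -3.89 to 1.19, both above background in 1 to 3 fibres of every group. With the MCU vector Cxcr4 had -1.23, -1.32 and -1.63 at 7 days, above all wild type fibres of that day (-2.90, -4.07, -1.66 and -5.37), and -4.92, -5.00, -1.21 and -3.51 at 14 days; the change between days was -4.00 (SE 1.33), with an adjusted p of 0.77. Ccl27a, a skin-homing ligand of Ccr10 that overlaps Il11ra1, ranged from -0.05 to 2.41 in the 30 fibres, and Ccl21b from -2.88 to -1.31. Ccl24, an attractant of eosinophils through Ccr3, ranged from -2.99 to -1.44, and its smallest adjusted p was 0.29, on silencing (0.33). Cxcl1 ranged from -3.28 to -0.20 and Cxcl5 from -5.01 to -1.53, where the low end is not above background. Ccr6, the receptor of Ccl20, ranged from -4.82 to -0.65 and was above background in 15 fibres, with Ccl20 in none; its smallest adjusted p was 0.24, on silencing at 7 days (1.00). Ccr8 and Ccr10 were above background in 11 and 8 fibres. Of the 34 genes that did not pass the filter, 10 were seen in some fibre, and these were above background in at most 3 fibres each, among them Ccl6 and Ccl9, which macrophages and neutrophils express, in 3 each.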

How the data were processed

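Single fibres were measured on 30 arrays. Agilent Feature Extraction 10.7.3.1 (build mm9) made the deposited intensity values, per the file headers, background-subtracted by the authors' scanner software and not scaled between arrays; flags for control, outlier and well above background came from the same deposited files. The submitters' processed intensity, deposited for the same arrays, was an alternative. How the submitters scaled it is not stated. Here the values are log2 intensity minus each array's 75th percentile. Per the labels' protocols, a kit for whole transcriptomes amplified the RNA and random primers labelled it, so signal follows transcript number loosely and strand is lost. Control spots and outlier spots were left out. A probe was kept (33163 in all) if 3 or more arrays of some group had it well above background, and each of 23341 genes is shown by its kept probe of highest mean. Limma 3.58.1 in R 4.3.3 fitted 8 group means to all arrays (22 residual degrees of freedom), 2-sided, and p-values were adjusted by Benjamini-Hochberg across those genes; the fit was tested on simulated data. Effects over both days are means of the effects at 7 and 14 days. Files were read with the data.table package (1.17.8), near matches of probes found with blastn 2.17.0, and figures drawn with matplotlib 3.10.9.

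Named genes are those that passed in any comparison, those detected in at least 15 fibres, their ligands or receptors, and, of each list of other pathway genes, up to 4 with the smallest p among those that passed in a comparison; genes named beyond this rule (list genes in no fibre or that missed the threshold, and genes sharing sequence with a probe) were chosen after their values were seen. Where a gene was not above background in a whole group, "at least" gives the bound against the higher of the lowest signal well above background and the gene's own, and over both days only where no fibre of the lower groups was above background. Members and lists were chosen with earlier results of these data known. The labels name no animals: p-values reflect the scatter of fibres, some of which can be from 1 mouse. The 4 slides held wild type and MCU vector fibres of 1 day, or control and silenced fibres of 1 day. MCU vector and silenced fibres were in array columns 1 and 2, and wild type and control fibres in columns 3 and 4. Deviations of fibres with the same number, treated and control, correlated at -0.175 to 0.186, over 0.1 in 4 of 14 pairs, so fibres were treated as unpaired. Gene overlaps and promoters are those of RefSeq on GRCm38.p6; exon and UTR positions of probes were not analysed here. Alternatives covered scaling, background correction, filter, probes, samples fitted, array weights, blocks and leaving out each fibre. The values of 1 gene are not reported here.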

Additional observations from a re-analysis of the deposited data

Results flagged for a closer look

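Among 21 named genes, 120 groups of 4 fibres were examined for 1 fibre set apart from the other 3, and 8 were found; chance alone would give about 1 in 20 groups. Cxcl10 was at -5.16 in transfected control fibre 1 of day 14, against -0.71 to -0.16 in the others of its group. Cxcl14 was at -0.14 in wild type fibre 3 of day 7, against -2.91 to -2.75. Cxcl5 was at -4.07 in silenced fibre 4 of day 14, against -2.39 to -2.19. Ccl24 was at -2.99 in wild type fibre 2 of day 14, against -1.92 to -1.82. Ccl21b was at -2.00 in wild type fibre 4 of day 7, against -1.58 to -1.53, and at -1.31 in control fibre 1 of day 14, against -2.17 to -2.05. Cxcl11 was at 7.12 in MCU vector fibre 2 of day 14, against 7.31 to 7.35, and Cxcr2 at -1.18 in MCU vector fibre 3 of day 14, against -1.08 to -1.07. The effect of silencing on Ccl19 differed between days by -1.52, as tested in the same model.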

How the results depend on the processing

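Single genes were followed under alternatives only in comparisons where their unadjusted p was below 0.05 in the main analysis. Of these 1202 values, 1060 kept their direction and side of the threshold, 110 lost their call, 32 gained one and 0 reversed. Few reversals are likely after such a choice, and a gene that had not passed had no call to lose. The number kept is therefore not a measure of how stable the calls were. The count of chemokine genes that passed on silencing over both days (7 of 23) was 3 with the array median, quantile normalization or the submitters' values (Cxcl9, Cxcl10 and Cxcr6 each time) and 2 with only the compared groups fitted; leaving out 1 fibre gave 3 to 7, with 3 or 4 without any of silenced fibres 1 and 3 of day 7, silenced fibre 2 of day 14 and control fibre 4 of day 14. On silencing at 7 days (4) it was 9 with normexp, 2 with array weights and 2 to 5 without 1 fibre (2 without silenced fibre 3). At 14 days (1) it was 2 with the percentile over probes detected everywhere, dim spots at the floor or the replicate block, Ccr9 being the gene added, and 1 to 2 without 1 fibre (2 without silenced fibre 4). The change of the silencing effect between days (1) was 4 with normexp, 0 with the percentile over probes detected everywhere, quantile normalization, the submitters' values, no filter, only the compared groups or array weights, and 0 to 2 without 1 fibre. Controls against wild type (7) gave 4 with normexp and 5 to 8 without 1 fibre. The MCU vector over both days (0) gave 1 with normexp, only the compared groups, array weights or every probe by itself (Ccl19), 1 without the filter (Cxcr7, detected in 0 fibres), 7 with transfected controls in place of wild type and 0 to 1 without 1 fibre; at 7 days (0) it gave 1 without the filter, 2 with dim spots at the floor (Ccr9 and Ccr10) and 0 without any 1 fibre. At 14 days and for the change between days it stayed at 0 in each leave-out. The replicate block left the other counts within 1.5 times (5, 3 and 7 for silencing over both days, silencing at 7 days and controls against wild type); the numbers are not known to pair fibres. The cause of these moves was not tested. Signal over background is a limit: 24 of the 57 genes were above it in no fibre, and of those tested most were dim, so that differences among them are uncertain in size or unmeasured. Over both days, the differences of Cxcl14 in controls and of Cxcr6, Cxcl10 and Ccr9 on silencing were smaller with dim spots at the floor. The number of arrays limits the precision.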
